A study of Mus musculus with 14 samples.

Results

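The DYRK kinases of the mouse were followed in RNA-seq of the embryonic hippocampus of 2 mouse models of Down syndrome. The family holds 5 genes, Dyrk1a, Dyrk1b, Dyrk2, Dyrk3 and Dyrk4, which were taken by name from the 59796 loci of the gene table, together with the 20 isoform rows that belong to them. The genes were chosen by name, and where several loci bore a name the locus with the highest mean was kept. Of these 5 genes, 4 passed the filter on low values (a mean of at least 10 in the libraries compared) and were tested, and Dyrk4 did not.

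The 14 libraries came from hippocampi of embryos between day 16 and day 18 of gestation. In the 189N3 line, Tg(Dyrk1a)189N3Yah, embryos carried a bacterial artificial chromosome with the mouse Dyrk1a gene and short flanks of it (3 libraries), and wild-type littermates served as controls (3 libraries). In the Dp(16)1Yey/+ line, Dp(16Lipi-Zfp295)1Yey, embryos carried a duplication of the part of chromosome 16 that corresponds to human chromosome 21, with Dyrk1a but none of the other DYRK genes (4 libraries), and were set against their own wild-type littermates (4 libraries). Both lines were kept with C57BL6 mice, and the extra Dyrk1a copy of 189N3 stems from 1 transgene. Whether each library is 1 embryo is not stated, so that p-values measure the spread between libraries, which may in part be technical. Dissected tissue holds many cell types, and more cells of a type and more RNA per cell cannot be told apart in it.

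DYRK proteins are dual-specificity kinases of the CMGC group. Each phosphorylates a tyrosine of its own activation loop while it is being made and from then on acts on serines and threonines of other proteins. Dyrk1a and Dyrk1b form the class with a nuclear localization signal, and Dyrk2, Dyrk3 and Dyrk4 form the other. Dyrk1a acts on splicing factors, on NFAT transcription factors, on Tau and on the DREAM complex that holds cells out of the cycle, and its dose matters for brain growth. Dyrk1b, also called Mirk, keeps cells in quiescence, Dyrk2 is a kinase of p53 and a regulator of the proteasome, Dyrk3 dissolves stress granules and other condensates, and Dyrk4 is known mostly from the testis.

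The coding sequence of the activation loop shows how close the genes are, and whether reads could be shared between them. It is printed below from the first codon of the DFG motif to the last codon of the APE or SPE motif, as found by translating the longest coding transcript of each gene in GENCODE vM21 (GRCm38, the assembly also named mm10), with the 3 codons of the tyrosine-X-tyrosine motif in capitals:
Dyrk1a: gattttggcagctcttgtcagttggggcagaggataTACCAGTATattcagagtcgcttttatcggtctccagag
Dyrk1b: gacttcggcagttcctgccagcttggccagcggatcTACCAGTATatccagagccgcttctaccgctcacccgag
Dyrk2: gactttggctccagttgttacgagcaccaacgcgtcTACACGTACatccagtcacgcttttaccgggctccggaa
Dyrk3: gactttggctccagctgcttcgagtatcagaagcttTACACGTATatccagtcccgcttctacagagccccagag
Dyrk4: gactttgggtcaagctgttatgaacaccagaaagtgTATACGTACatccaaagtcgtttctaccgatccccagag
Each stretch is 75 bases long. That of Dyrk1a lies on the plus strand within chr16:94671557-94673378 and spans exons 7 and 8 of its transcript, and that of Dyrk1b lies on the plus strand within chr7:28184495-28185109, in exons 6 and 7. On the minus strand, the loop of Dyrk2 (chr10:118860182-118860256) and that of Dyrk3 (chr1:131129301-131129375) each lie in exon 3, and the loop of Dyrk4 spans exons 10 and 11 (chr6:126885361-126886685). All 5 are coding. The middle codon of the motif is CAG in Dyrk1a and Dyrk1b and ACG in the other 3. Dyrk1a and Dyrk1b share 58 of the 75 bases (77.3%), Dyrk2 and Dyrk3 share 56, and the pair least alike, Dyrk1a and Dyrk4, shares 44 (58.7%). Over their full coding transcripts, the longest run of identical bases between any pair of members was 29 bases, between Dyrk2 and Dyrk3, and for Dyrk1a and any other member it was 17 bases. Reads were 100 bases long, so that no read within these transcripts could match another member over its whole length.

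Before the values, 3 features of the libraries have to be named. The first is a library of the Dp(16)1Yey/+ group, replicate 1 (replicates are numbered from 0), with the lowest median near Dyrk1a in its group. Over the 9 tested neighbours of Dyrk1a its values lay a median of 0.16 above the littermate mean on the log2 scale, against 0.61, 0.64 and 0.33 in replicates 0, 2 and 3. Not every neighbour was lowest there, and Pigp was highest (1039, against 858, 898 and 1000 in replicates 0, 2 and 3). Results of this group on Dyrk1a, the paralogs and the neighbours are therefore also given without replicate 1, as values with no test, since the library was singled out by values of the same region. The second concerns the littermates of Dp(16)1Yey/+, in which replicates 0 and 1, and replicates 2 and 3, were nearly alike in pairs. Their typical squared difference was 1.51 and 1.79 times what counting error gives, against 23.98 to 26.5 across the pairs, so that the 4 libraries may stand for fewer independent samples. The third is the make-up of the tissue. The libraries held 20809135 to 29098454 fragments, and all 8 markers of hippocampal fields were present in each group, with summed values of 23727 to 38354. The summed value of 7 erythroid markers was 13940 to 22248 in 189N3 and 33998 to 54465 in its littermates, without overlap. In Dp(16)1Yey/+ replicate 1 it was 54579, against 6154 to 22804 in the other 3 libraries of that group, and the sum of 10 progenitor markers was also highest there (67265, against 30788 to 54166). Values of skin markers (6 genes) were 189 to 270 in 189N3 and 273 to 1961 in its littermates. The remaining lists of neurons, striatum, microglia, endothelial cells, oligodendrocyte precursors and choroid plexus overlapped between each model and its littermates. No listed marker with a named locus was under 1 in all libraries, and what part these differences have in the results was not tested.

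Counted at its own locus, Dyrk1a had the highest level of the family in each library, and Dyrk4 was all but absent. Values are fragments per locus divided by 1 size factor per library, called scaled fragments here, and levels of different genes were compared per kilobase of annotated exon. On that scale Dyrk1a stood at 401.6 ± 132 scaled fragments per kb (SD, n = 14 libraries), Dyrk2 at 112.0 ± 25.9, Dyrk3 at 96.2 ± 24.5, Dyrk1b at 49.3 ± 13.0 and Dyrk4 at 0.221 ± 0.310. The lowest Dyrk1a library (257 per kb) lay above the highest library of any other member (170 per kb, Dyrk2). Dyrk2 and Dyrk3 were neighbours in this order whose ranges overlapped broadly (73.0 to 170 and 58.3 to 134 per kb), and Dyrk1b (26.0 to 78.4 per kb) overlapped both. The order of the members below Dyrk1a holds for the loci of the genes alone. With the loci that overlap them on the other strand added, as described for Dyrk1a further on, and still divided by the exon length of the gene, Dyrk1a ranged from 629.6 to 1238 per kb, Dyrk2 from 375 to 688, Dyrk1b from 272 to 531 and Dyrk3 from 76.2 to 164. Dyrk1a was still highest within each library, although its range over the libraries then overlapped with that of Dyrk2. Dyrk1b stood above Dyrk3 in place of below it. Dyrk4 had 8 fragments in all libraries together, was at 0 in 8 of 14 libraries and never exceeded 3 fragments. A count of 0 allows up to 3 fragments, here 0.983 to 1.46 per kb over the 8 libraries at 0. In each of these the level of Dyrk1b was at least 26.5 times that limit. The other libraries had 1 or 3 fragments of Dyrk4, and for them the limit does not hold. These limits cover counting error only. Both isoform rows of Dyrk4 were correspondingly near 0, and nothing further can be said about this gene at this depth.

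**Figure D1:**
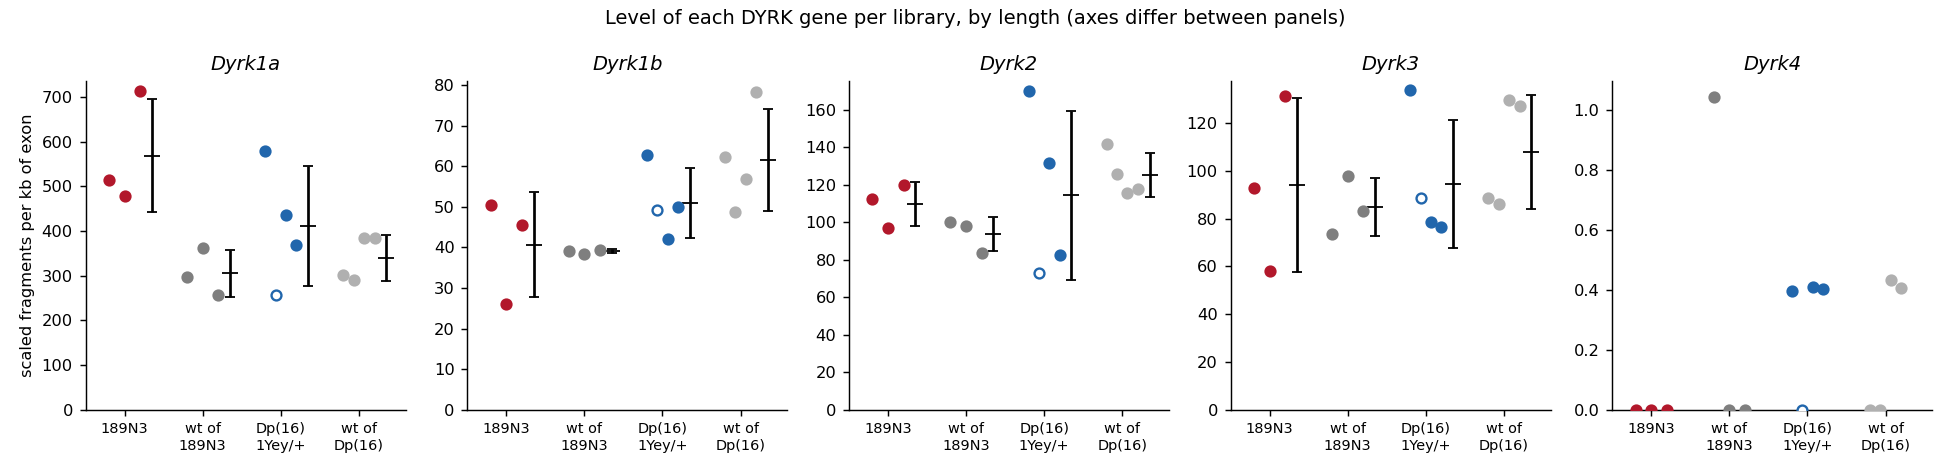
Levels of the 5 DYRK genes in scaled fragments per kb of annotated exon, one point per library, with the mean and SD of each group beside the points (none for Dyrk4, with 0 to 3 fragments per library); the open point is Dp(16)1Yey/+ replicate 1 and the y axes differ. Dyrk1a was above 257 per kb in all libraries, and the 189N3 points (477 to 712) lay above those of their littermates (258 to 361).

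In 189N3 the question was whether the extra Dyrk1a gene showed in its RNA, and whether any relative of it moved along. Dyrk1a (locus XLOC_020589, within chr16:94570010-94695517, plus strand) had 4248, 3938 and 5877 scaled fragments in the 3 189N3 libraries and 2448, 2977 and 2126 in the littermates. All 3 transgenic libraries were above all 3 littermates, which held for 1.99% of the 35899 loci tested. The ratio of the means was 1.86. By limma the log2 fold change was 0.89 (95% interval 0.38 to 1.40), with an unadjusted p-value of 0.0022 and an adjusted p-value of 1.00. In the exact permutation test p was 0.10, the smallest that 3 against 3 libraries allow, and 0.65 after adjustment over the 8 tests of 4 members in 2 models. The gene was thus higher in each transgenic library without passing a test adjusted across loci. By the same limma test 0.0% of all loci were called (0 loci, with 672 at an unadjusted p under 0.05; edgeR called 0 and DESeq2 15 loci), and 0.825% were higher at an unadjusted p under 0.05, while 1.05% were lower at that level.

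In 189N3 no tested member passed the limma test after adjustment, and the intervals of Dyrk1b, Dyrk2 and Dyrk3 included 0. Dyrk1b, the closest relative, had values of 136, 70.2 and 122 in 189N3 and 106, 104 and 106 in the littermates, and its log2 fold change was 0.00 (interval -0.61 to 0.61, limma adjusted p = 1.00). Its transgenic libraries lay on both sides of the tight littermate values. Dyrk2 had 701, 605 and 748 against 625, 611 and 522, with a log2 fold change of 0.22 (interval -0.27 to 0.71). Dyrk3 had 295, 185 and 417 against 234, 310.5 and 265, with a log2 fold change of 0.08 (interval -0.54 to 0.71). The groups overlapped for all 3 genes. These intervals lie between -0.61 and 0.71, too wide to show equal expression. Their upper ends lie above the lower end of the interval of Dyrk1a. Of the fragments at the own loci of the 5 family members, Dyrk1a made up 81.0% ± 1.79 in 189N3 (SD, n = 3) and 72.2% ± 2.03 in the littermates. The ranges of this share, which does not depend on the scaling of a library, were 78.9% to 82.1% and 70.4% to 74.4% (exact permutation test, two-sided p = 0.10). The share leaves out the opposite-strand loci described further on, whose part of the fragments differed between members and between libraries.

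**Figure D2:**
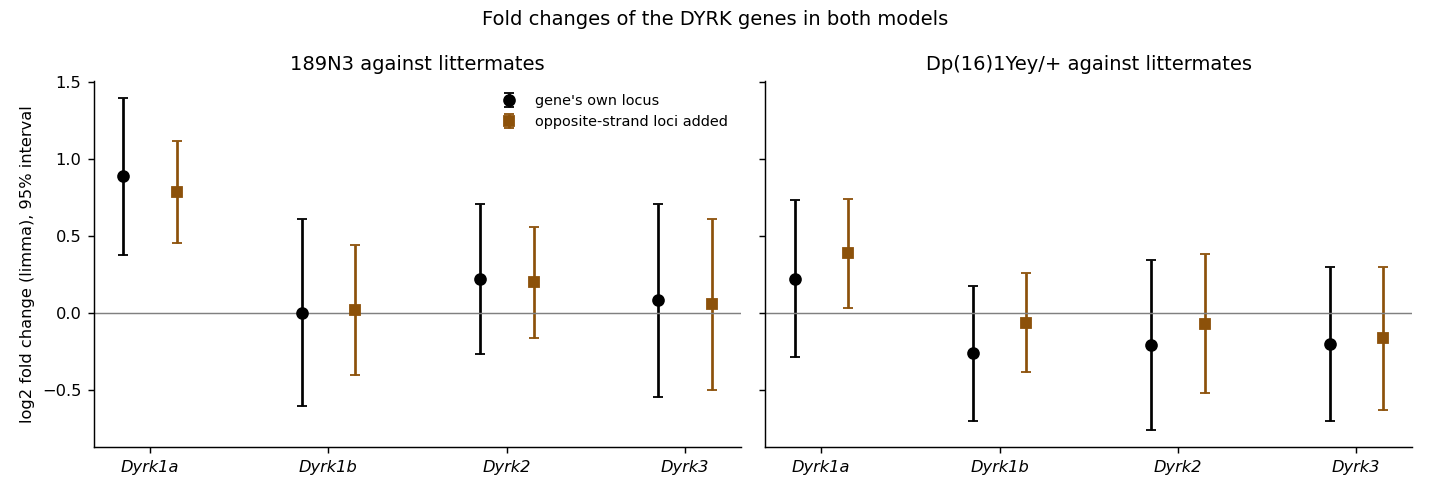
Log2 fold changes of the 4 tested members against littermates by limma in 189N3 and in Dp(16)1Yey/+, with 95% intervals; circles are the locus of the gene, squares the same with the opposite-strand loci added. In 189N3 both Dyrk1a intervals lie above 0 (0.38 to 1.40 and 0.46 to 1.12), and in both models the intervals of Dyrk1b, Dyrk2 and Dyrk3 include 0.

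In Dp(16)1Yey/+, Dyrk1a had 4781, 2124, 3600 and 3044 scaled fragments, and 2488, 2397, 3171 and 3175 in the littermates. Only 2 of the 4 transgenic libraries, replicates 0 and 2, were above all littermates, and replicate 1 was below all of them. The log2 fold change was 0.22 (interval -0.29 to 0.73, limma unadjusted p = 0.36, adjusted p = 0.91; exact permutation p = 0.49). With 1 library left out at a time it ranged from 0.04 to 0.43, the highest without replicate 1 and the lowest without replicate 0. No locus was called (0 of 36024, 0.0%, with 1273 at an unadjusted p under 0.05; edgeR called 0 and DESeq2 8 loci). The Dyrk1a share of family fragments, again counted at the own loci alone, was 74.4% ± 2.65 (n = 4) against 68.3% ± 2.82 in the littermates. The ranges of 70.9% to 77.3% and 65.1% to 71.1% overlapped narrowly (exact permutation test, two-sided p = 0.057).

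The other members had fold changes below 0 in Dp(16)1Yey/+, with intervals that include 0. Dyrk1b had 169, 133, 113 and 135 against 168, 132, 153 and 211, a log2 fold change of -0.26 (interval -0.70 to 0.18). Dyrk2 had 1064, 456, 821 and 516 against 886, 786, 721 and 737, so that the transgenic libraries spread to both sides of the littermates, with a log2 fold change of -0.21 (interval -0.76 to 0.34). For Dyrk3 the values were 425, 282, 250.02 and 244 against 281, 273, 412 and 404, with a log2 fold change of -0.20 (interval -0.70 to 0.30). Adjusted p-values of limma were 0.91 for each of these 3 genes. Without replicate 1 the log2 fold changes were -0.25 for Dyrk1b, -0.02 for Dyrk2 and -0.18 for Dyrk3. An interaction test, with all 4 groups fitted together, put the difference between the models at -0.67 for Dyrk1a (Dp(16)1Yey/+ minus 189N3, standard error 0.34, unadjusted p = 0.069, adjusted p = 0.92) and passed the threshold for no member, where 2.66% of loci had an unadjusted p under 0.05.

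A second locus bears on Dyrk1a. The transcript map marks XLOC_021658 as overlapping exons of Dyrk1a on the other strand, and it held about as many fragments as the gene itself. Its values were 5966, 5791 and 3141 in 189N3 and 3270, 2897 and 3069 in the littermates, and 3572, 3744, 5374 and 6803 in Dp(16)1Yey/+ against 4088, 4106, 2613 and 2768. The library highest for Dyrk1a in 189N3, replicate 2, was lowest for the opposite-strand locus, and likewise replicate 0 in Dp(16)1Yey/+. The opposite-strand locus held between 34.8% (189N3 replicate 2) and 69.1% (Dp(16)1Yey/+ replicate 3) of the fragments of both. These were also the libraries with the lowest and the highest share of all fragments in the 10436 loci that overlap a named gene on the other strand, 10.9% and 24.7%. The nearly alike littermates of Dp(16)1Yey/+ fell into the same pairs, with 62.2% and 63.1% in replicates 0 and 1 and 45.2% and 46.6% in replicates 2 and 3. The library kit keeps the strand, but whether the counting used it is not stated, and without strand the reads of a gene and of a transcript opposite to it cannot be told apart. What these fragments are was not tested.

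Pooled over the groups on the log2 scale, though not in each group, the spread of both loci summed was smaller than that of either alone. The sum is an alternative that was chosen after the values were seen. It was 10214, 9729 and 9019 in 189N3 and 5719, 5874 and 5195 in the littermates, a ratio of the means of 1.73, and the groups did not overlap, as for 2.41% of genes and loci. It was 8353, 5868, 8974 and 9847 in Dp(16)1Yey/+ and 6576, 6503, 5785 and 5943 in the littermates. Replicate 1 of Dp(16)1Yey/+ stood among the littermates, and the other 3 stood above all of them, with a ratio of the means of 1.46 for these 3. The spread of log2 values within groups was 0.34 for the Dyrk1a locus, 0.39 for the opposite-strand locus and 0.19 for the sum (pooled SD). With opposite-strand loci added to every gene, the log2 fold change of Dyrk1a in 189N3 was 0.79 (interval 0.46 to 1.12, limma unadjusted p = 0.00036, adjusted p = 0.81), and 0.956% of the 26366 genes and loci were higher at an unadjusted p under 0.05. By DESeq2 on the recovered fragments the same sum gave an adjusted p of 0.018, and by edgeR 0.93. The log2 fold change in Dp(16)1Yey/+ was 0.39 (interval 0.04 to 0.74, limma unadjusted p = 0.034, adjusted p = 0.86), and 1.91% of genes and loci were higher at an unadjusted p under 0.05. With 1 library left out at a time it ranged from 0.30 without replicate 3 to 0.55 without replicate 1. The difference between the models on this scale was -0.40 (limma unadjusted p = 0.084), and -0.24 without replicate 1. No test by limma passed after adjustment.

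**Figure D3:**
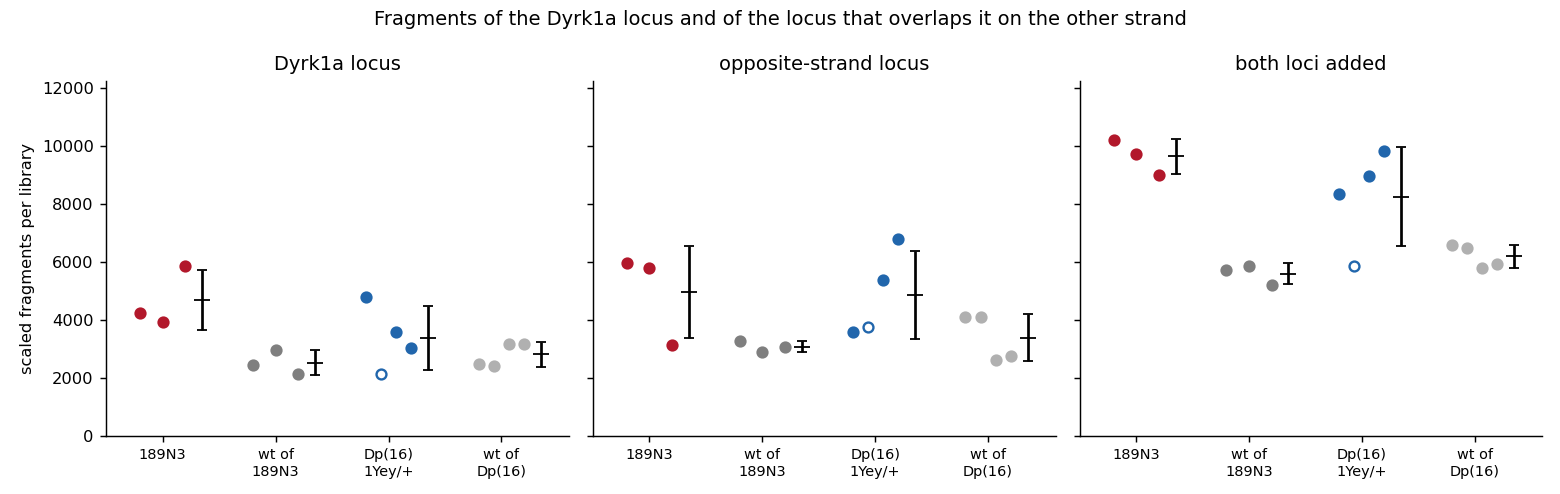
Scaled fragments of the Dyrk1a locus, of the locus overlapping it on the other strand, and of both added, one point per library with the mean and SD of each group; the open point is Dp(16)1Yey/+ replicate 1. Summed values were 9019 to 10214 in 189N3 and 5195 to 5874 in its littermates, and 8353 to 9847 in 3 of the 4 Dp(16)1Yey/+ libraries against 5785 to 6576.

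The other members have opposite-strand loci too, in different proportion. The 2 loci opposite to Dyrk1b held 82.2% to 90.6% of the fragments of the gene and these loci, the 2 opposite to Dyrk2 held 75.3% to 81.1%, and the locus opposite to Dyrk3 held 9.05% to 25.1%. The map names none opposite to Dyrk4. None of these shares spread over as many percentage points as that of Dyrk1a. With these loci added, the log2 fold changes in 189N3 were 0.02 for Dyrk1b, 0.20 for Dyrk2 and 0.06 for Dyrk3, and in Dp(16)1Yey/+ they were -0.06, -0.07 and -0.17. All 6 intervals included 0 and lay between -0.63 and 0.61.

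Among wild-type littermates, Dyrk1b and Dyrk2 were higher in each library of the Dp(16)1Yey/+ line than in those of 189N3. Dyrk1b had 132 to 211 scaled fragments in the littermates of Dp(16)1Yey/+ and 104 to 106 in those of 189N3. The groups did not overlap, as for 14.7% of the 36045 loci in this direction. The log2 difference was 0.63 (interval 0.13 to 1.13, limma unadjusted p = 0.017, adjusted p = 0.19; exact permutation p = 0.057, the smallest that 4 against 3 libraries allow), and with opposite-strand loci added it was 0.57 (limma adjusted p = 0.088), again without overlap. Dyrk2 was likewise without overlap (721 to 886 and 522 to 625), with a log2 difference of 0.42 (limma adjusted p = 0.39). With opposite-strand loci added the log2 difference of Dyrk2 was 0.23 (exact permutation p = 0.17), and its ranges overlapped (3071 to 3833 and 2626 to 3246). For Dyrk3 (273 to 412 and 234 to 310.5) and Dyrk1a (2397 to 3175 and 2126 to 2977) the ranges overlapped, with log2 differences of 0.33 and 0.16. Differences between the littermates were common: 10.4% of loci were higher in those of Dp(16)1Yey/+ at an unadjusted p under 0.05, and 38 loci (0.105%) passed after adjustment. Line, litter, embryonic age, library preparation and tissue make-up cannot be told apart in this comparison.

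The isoform table gives 7 isoforms of Dyrk1a, of which 4 had a mean of at least 10. The values are the authors' estimates of how the fragments of the locus divide. TCONS_00036513, a variant joined to uc008abg.2 (class j, sharing a splice junction with it), took 55.8% of the locus on average over the 14 libraries. TCONS_00036518, which equals uc008abj.2, took 26.3%, TCONS_00036514, which equals uc008abg.2, took 13.95%, and TCONS_00036519, which equals uc008abi.1, took 3.75%. Over all members 14 of the 20 isoform rows had a mean of at least 10, and 4 of 14 in 189N3 and 1 of 14 in Dp(16)1Yey/+ had an unadjusted limma p under 0.05, as had 2.56% and 3.48% of all isoforms. Of these, 3 of the 4 in 189N3 and the 1 in Dp(16)1Yey/+ were higher, as were 1.38% and 1.71% of all isoforms. No isoform of a member passed after adjustment (smallest limma adjusted p 1.00 and 0.94), where 0.0366% and 0.0214% of all isoforms did.

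The 2 isoforms of Dyrk1a with the largest shares had higher values in each 189N3 library. TCONS_00036513 had 2385, 2015 and 3353 scaled fragments in 189N3 and 1634, 1852 and 1266.5 in the littermates, and its log2 fold change was 0.69 (limma unadjusted p = 0.035, adjusted p = 1.00). TCONS_00036518 had 1325, 1303 and 1076 against 252, 658 and 208, and its log2 fold change was 1.91 (standard error 0.44, unadjusted p = 0.0045, adjusted p = 1.00). Both were free of overlap, as were 3.08% of the isoforms tested in this direction. The littermates of Dp(16)1Yey/+ had 1075, 754, 947.5 and 1163 of TCONS_00036518, above those of the other line by 1.58 on the log2 scale (limma unadjusted p = 0.0016, adjusted p = 0.18). Values of the 189N3 libraries overlapped with these wild-type values of the other line. Line, litter, embryonic age, library preparation and tissue make-up cannot be told apart between the lines. Which of the groups departs from the usual level was not tested. In Dp(16)1Yey/+ this isoform had 1408, 512, 721 and 885, a log2 fold change of -0.24, and the difference between the models was -2.15 (unadjusted p = 0.0020, adjusted p = 0.95).

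The share each isoform takes of the locus does not depend on the scaling of a library. The share of TCONS_00036513 was 54.8% ± 3.16 in 189N3 and 62.9% ± 3.63 in the littermates (n = 3 each, exact permutation p = 0.10), without overlap. It was 55.4% ± 5.08 in Dp(16)1Yey/+ and 51.8% ± 4.73 in the littermates (n = 4 each, exact permutation p = 0.31). The share of TCONS_00036518 was 25.7% ± 4.48 in Dp(16)1Yey/+ and 35.3% ± 6.01 in its littermates, lower in all 4 libraries (exact permutation p = 0.029, the smallest that 4 against 4 libraries allow, and 0.23 after adjustment over 8 such tests of shares). The ranges were close, 20.0% to 29.5% and 29.9% to 43.2%. These littermates were nearly alike in pairs and may stand for fewer than 4 independent samples. In 189N3 the share of TCONS_00036518 lay the other way, at 27.5% ± 8.04 against 14.1% ± 6.96 (n = 3 each, exact permutation p = 0.20), with groups that overlapped. How often shares of all isoforms were free of overlap between groups was not counted. Isoform TCONS_00036519 had 66.3 to 132 in the littermates of Dp(16)1Yey/+ and 121.5 to 209 in the model, a log2 fold change of 0.71 (limma unadjusted p = 0.030, adjusted p = 0.94).

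**Figure D4:**
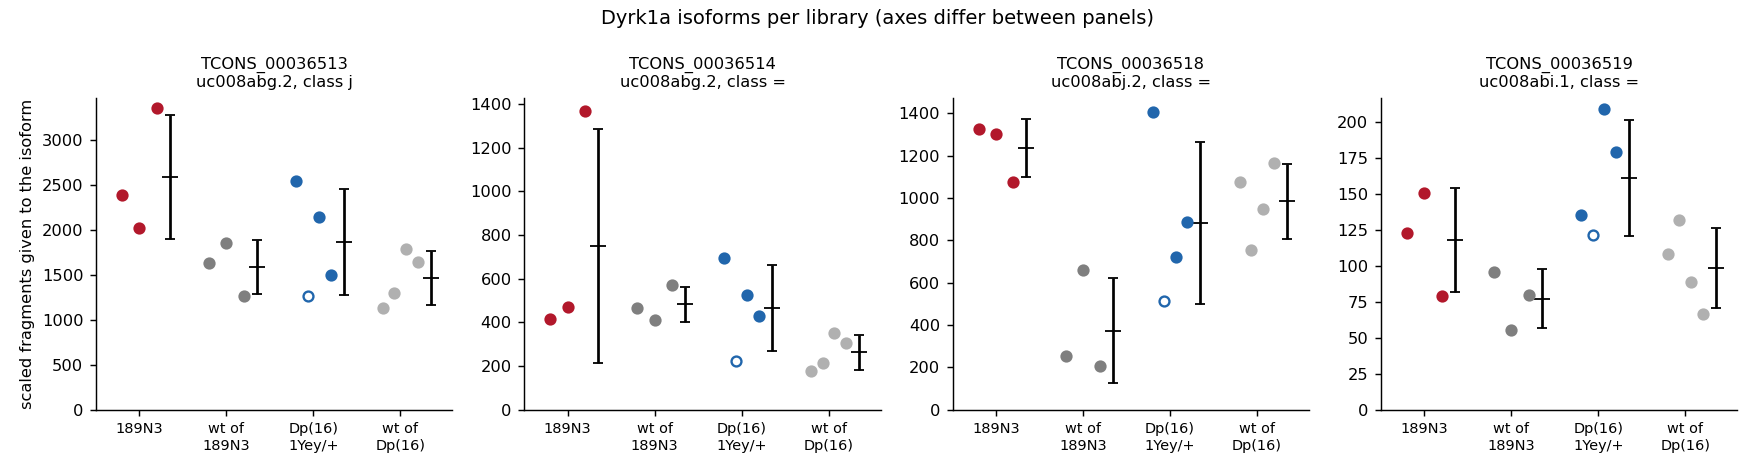
Scaled fragments given to each of the 4 Dyrk1a isoforms with a mean of at least 10, one point per library with the mean and SD of each group; the open point is Dp(16)1Yey/+ replicate 1 and the y axes differ. TCONS_00036518 was 1076 to 1325 in 189N3 and 208 to 658 in its littermates, while both groups of the other line lay between 512 and 1408.

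For the paralogs, isoform estimates spread widely between libraries. TCONS_00011341, which equals uc007hea.1 of Dyrk2, had 432, 248 and 451 in 189N3 and 120, 206 and 196 in the littermates, and its log2 fold change was 1.10 (limma unadjusted p = 0.017, adjusted p = 1.00), whereas the sum of the gene overlapped between the groups. TCONS_00082263 of Dyrk1b had 0.00023, 7.33 and 0.068 against 40.9, 8.19 and 26.7, a log2 fold change of -3.41 (limma unadjusted p = 0.026, adjusted p = 1.00). In 4 libraries over all groups it was under 1. The 3 isoform rows of Dyrk3 each ranged from near 0 to at least 105 scaled fragments across libraries.

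The neighbours of Dyrk1a on chromosome 16 belong to the duplication but not to the transgene. Of 11 listed genes, 9 were tested; Ripply3 (2.42 to 10.4 scaled fragments) and Kcnj15 (2.97 to 10.9) were below the filter. In 189N3 the median log2 fold change of the 9 was -0.05 (-0.04 over all loci), 3 were higher and 6 lower, and none had an unadjusted p under 0.05. In Dp(16)1Yey/+ the median was 0.41 (0.03 over all loci), 7 were higher, and 5 of the 9 had an unadjusted limma p under 0.05, all higher, against 1.71% of loci. The adjusted p of each was 0.91. Without replicate 1, which was singled out by these genes, the median was 0.49. The p-values treat the littermate libraries as independent, although these were nearly alike in pairs. With each littermate pair averaged, 271 of 36051 loci had an unadjusted limma p under 0.05, against 1273 of 36024 without averaging.

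Those 5 genes were higher in all 4 Dp(16)1Yey/+ libraries than in any littermate, replicate 1 included, which held for 1.72% of loci. Pigp, a subunit of the enzyme that starts GPI anchor synthesis, was at 949 ± 84.8 against 538 ± 122 (n = 4 each, log2 fold change 0.84, unadjusted p = 0.00079 by limma). The ubiquitin ligase gene Ttc3 was at 60720 ± 7154 against 39439 ± 4283 (0.62), and Brwd1, which encodes a bromodomain protein, at 5868 ± 499 against 3952.5 ± 41.6 (0.57). Psmg1, a proteasome assembly chaperone, was at 402 ± 9.08 against 278 ± 63.5 (0.56), and Dscr3, a retriever subunit also named Vps26c, at 1548 ± 209 against 1164 ± 112 (0.41). The 4 others overlapped with the littermates. Hlcs, the ligase that attaches biotin, had a log2 fold change of 0.18, the ETS factor gene Erg 0.28, its relative Ets2 -0.12, and the potassium channel gene Kcnj6 -0.73, with values between 8.23 and 111. In 189N3 the same genes stood at -0.17 (Pigp), 0.01 (Ttc3), -0.03 (Brwd1), -0.05 (Psmg1), -0.12 (Dscr3), 0.09 (Hlcs), -0.25 (Erg), 0.30 (Ets2) and -0.05 (Kcnj6). The difference between the models, by the interaction test, was 1.02 for Pigp (unadjusted p = 0.0057), 0.59 for Brwd1 (0.011), 0.61 for Ttc3 (0.019) and 0.60 for Psmg1 (0.047), each with an adjusted limma p of 0.92. At its own locus, the scale used for these neighbours, Dyrk1a had a log2 fold change of 0.22 in Dp(16)1Yey/+. The summed Dyrk1a value was above the littermate mean by 0.43, 0.54 and 0.67 on the log2 scale in Dp(16)1Yey/+ replicates 0, 2 and 3. In replicate 1 it was 0.08 below (-0.08), although Pigp, Ttc3, Psmg1, Brwd1 and Dscr3 were above the littermates in that library.

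**Figure D5:**
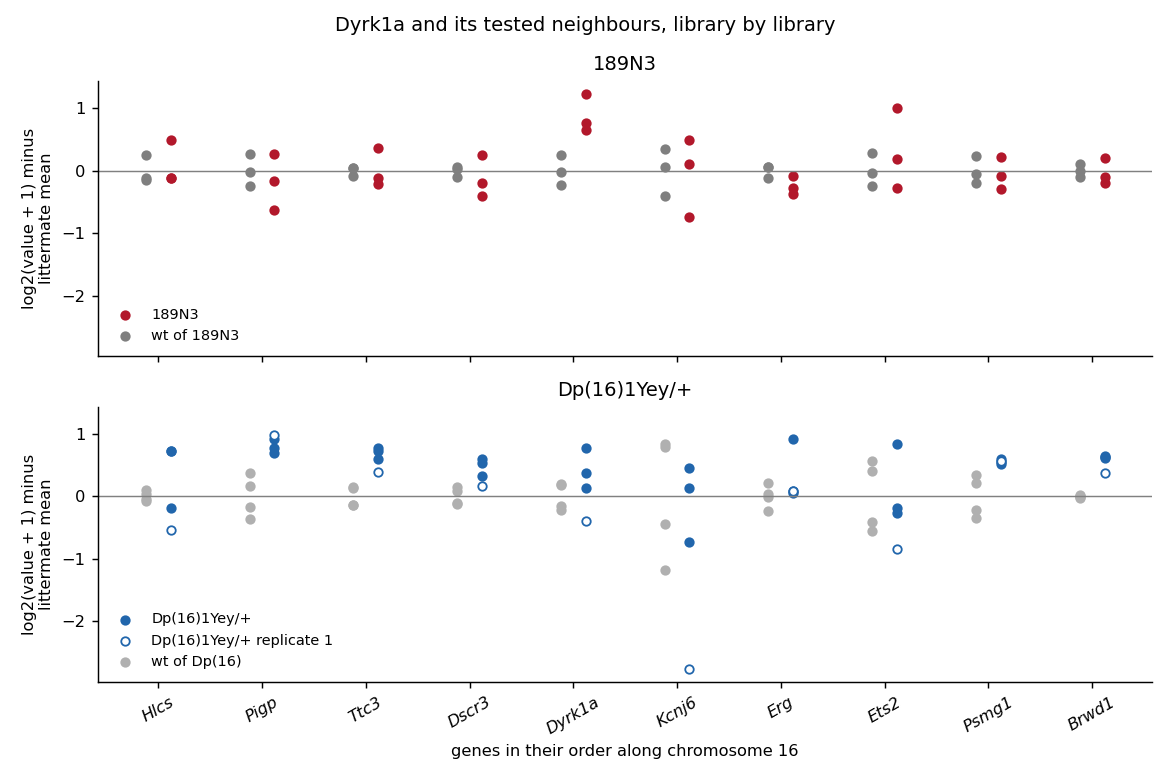
Dyrk1a and its 9 tested neighbours in their order on chromosome 16, as log2(value + 1) minus the mean of the littermates, one point per library; the open points are Dp(16)1Yey/+ replicate 1. In 189N3 Dyrk1a is the gene whose 3 points all lie above its littermates (0.66, 0.77 and 1.24), and in Dp(16)1Yey/+ Pigp, Ttc3, Dscr3, Psmg1 and Brwd1 lie above theirs.

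Related kinases and known partners of the DYRK proteins were read from the same fit, and none passed after adjustment. Of 9 relatives (the HIPK kinases, the CLK kinases of splicing factors and Prpf4b), 8 were tested in 189N3 (median log2 fold change 0.05) and 9 in Dp(16)1Yey/+ (median -0.06). None had an unadjusted p under 0.05. The 2 genes with the smallest p-value in each direction were Hipk1 (0.13), Clk2 (0.11), Clk4 (-0.14) and Clk1 (-0.06) in 189N3, and Clk1 (0.20), Clk4 (0.21), Clk2 (-0.11) and Hipk3 (-0.11) in Dp(16)1Yey/+, given as log2 fold changes. Of 12 DREAM complex genes 11 were tested. Their median was -0.09 in 189N3 and 0.11 in Dp(16)1Yey/+, without an unadjusted p under 0.05. The genes named by the same rule, 2 in each direction, were Rbl2 (0.21), Lin54 (0.04), E2f5 (-0.23) and Lin9 (-0.20) in 189N3, and Lin9 (0.28), E2f5 (0.22), Lin37 (-0.32) and Mybl2 (-0.30) in Dp(16)1Yey/+.

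Of 51 listed substrates and partners 50 were tested. In 189N3, 36 were higher and 14 lower (median log2 fold change 0.11, against -0.04 over all loci), and in Dp(16)1Yey/+ 16 were higher and 34 lower (median -0.07, against 0.03). Over loci with a mean of at least 100 the medians were -0.01 and 0.04. How many of all loci were higher or lower was not counted, here or for the neighbours, so these counts have no background. In 189N3 none of the 50 had an unadjusted p under 0.05. The amyloid precursor gene App had a log2 fold change of 0.47 (4482 ± 1136 against 3220 ± 723, n = 3 each) and Dscaml1 0.35, while Nfatc4, an NFAT factor, had -0.48 and the cyclin Ccnd3 -0.21. For Dp(16)1Yey/+, 1 of 50 had an unadjusted p under 0.05, the forkhead factor Foxo1 (-0.76, 320 ± 142 against 502 ± 41.4, n = 4 each, limma unadjusted p = 0.022, adjusted p = 0.91), where 1.82% of loci were lower at that level. Next were the acetyltransferase gene Crebbp (-0.25), the cyclin Ccnd2 (0.37) and the splicing factor gene Sf3b1 (0.19).

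Over the 14 libraries, the 5 genes whose log2 values followed Dyrk1a most closely among 11242 named loci with a mean of at least 100 were Tcp11l1 (Pearson r = 0.93), Zbtb38 (0.89), Ankrd45 (0.86), Unc5d (0.85) and Ptprk (0.85). After each group was centred on its mean they were Lrrc3, Spock2, Ifnar1, A730017C20Rik and Gabbr2 (r = 0.985 to 0.991). These are descriptions over libraries that differ in depth, strand proportion and tissue make-up, and what part these have in the correlations was not tested. Among members, r of Dyrk1a was 0.49 with Dyrk2, 0.40 with Dyrk3 and 0.01 with Dyrk1b, and 0.75, 0.70 and 0.41 after centring. The pair most alike without centring was Dyrk1b and Dyrk3 (0.72).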

How the data were processed

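Hippocampal RNA of the 14 libraries was read as paired ends of 100 bases from a stranded total RNA kit, with polyA RNA named in the labels. Per the labels and methods, the authors mapped reads with TopHat and Bowtie to mm10 and assembled and quantified transcripts with Cufflinks; versions, and whether counting used strand, are not given in the sources used here. The signal values deposited by the authors are fragments per locus divided by 1 size factor per library. Whole fragments were recovered from them (tolerance 0.1), giving 20809135 to 29098454 per library; isoform values are estimated shares. No sample column was left unmapped.

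Loci were matched to the deposited transcript map by summing isoforms in all 14 columns. Of 59796 loci, 51234 were matched and 19687 named, and the row with the highest mean was kept per symbol. limma 3.58.1 (R 4.3.3, trend) was run on log2(value + 1), a scale that understates changes of genes with low values, for loci with a mean of at least 10, with Benjamini-Hochberg adjustment over all of them. Single values were compared by exact two-sided permutation tests. edgeR 4.0.16 and DESeq2 1.42.0 on recovered fragments, other scalings, filters and pseudocounts, the replicate block and leaving out each library were alternatives. Scripts were tested on simulated data. Samples with the same number did not deviate together and were not paired. Members and gene lists were chosen with earlier results of these data known. Named were all members and neighbours, the 2 genes with the smallest p in each direction of the other lists, and the 5 genes most like Dyrk1a. Adding opposite-strand loci and leaving out Dp(16)1Yey/+ replicate 1 for the neighbours were chosen after seeing the data.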

Additional observations from a re-analysis of the deposited data

Results flagged for a closer look

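In a group of 4 libraries, 1 library is set apart when its gap to the next exceeds the critical value of Dixon at the 95% level as a share of the range of the group, and chance alone does this in about 1 in 20 groups. Of 70 groups of 4 examined here, 2 had such a library. Brwd1 in Dp(16)1Yey/+ replicate 1 was at 5124 scaled fragments, with a gap of 0.873 of the range. Erg in Dp(16)1Yey/+ replicate 2 was at 100.01, with a gap of 0.977 of the range. Erg also had opposite directions in the models: each 189N3 library was below the mean of its littermates and each Dp(16)1Yey/+ library was above that of its own, a difference of -0.58 (189N3 minus Dp(16)1Yey/+) between the log2 ratios of the group means to those of the littermates. In Dp(16)1Yey/+ this rested mostly on replicate 2, the library set apart above. On log2(value + 1) it lay 0.92 above the littermate mean, and replicates 0, 1 and 3 lay 0.08, 0.08 and 0.05 above. Littermate replicate 0 (60.8) was higher than replicates 0, 1 and 3 of the model (55.4, 55.2 and 54.3). On log2(value + 1), the interaction test of limma over all 4 groups put the difference between the models at 0.53 (Dp(16)1Yey/+ minus 189N3, standard error 0.32, unadjusted p = 0.12, adjusted p = 0.92).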

How the results depend on the processing

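The log2 fold change of Dyrk1a was 0.82 to 0.93 over 12 settings in 189N3 and 0.19 to 0.23 over 13 in Dp(16)1Yey/+. Leaving out 1 library gave 0.71 to 1.02 and 0.04 to 0.43, and 0.73 to 0.83 and 0.30 to 0.55 with opposite-strand loci added. With those loci, DESeq2 gave 0.78 in 189N3 (adjusted p = 0.018). Dyrk1b in 189N3 was -0.0052 with TMM factors, -0.18 to 0.29 with 1 library left out, and with opposite-strand loci -0.0032 by edgeR and -0.11 to 0.13 with 1 library left out. With those loci and 1 library left out, Dyrk1b was -0.16 to 0.0045 in Dp(16)1Yey/+ and -0.20 to 0.044 for the difference between models, and Dyrk2 in Dp(16)1Yey/+ was -0.20 to 0.089. Dyrk3 in 189N3 was -0.20 to 0.39, and -0.16 to 0.30 with those loci. Isoform TCONS_00036514 in 189N3 was -0.12 to 0.74 and turned below 0 without 189N3 replicate 2. The causes were not tested.

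Loci called in 189N3 were 0 by limma, 15 by DESeq2, 4 with median-ratio size factors, 22 by DESeq2 with opposite-strand loci and 0 to 28 with 1 library left out (28 without 189N3_WT replicate 1, 2 without 189N3_WT replicate 0). In Dp(16)1Yey/+ they were 0, 8 by DESeq2, 26 by DESeq2 with opposite-strand loci and 0 to 3 with 1 library left out (3 without replicate 1).

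Samples of the same number did not deviate together (correlations of -0.32 to -0.03 in 189N3 and -0.44 to -0.07 in Dp(16)1Yey/+). Between samples of different number they were -0.21 to 0.38 and -0.46 to 0.46, so that some model and littermate libraries did deviate together. Why they did was not tested. With the replicate block 72 loci were called in 189N3 and 0 in Dp(16)1Yey/+, and Dyrk1a was at 0.89 (adjusted p = 0.57) and 0.22. With 3 or 4 libraries a group, small differences of the paralogs and the division among isoforms cannot be resolved, and Dyrk4 lies at the limit of detection.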
